A study of Mus musculus with 13 samples.

Results

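The 9 genes described here are markers of lymphocytes and of the lymph node: *Cd79a*, *Cd79b* and *Ms4a1* for B cells, *Cd3e*, *Cd4* and *Cd8a* for T cells, and *Ccl21a*, *Cxcl13* and *Ltb* for lymph node stroma and the lymphotoxin signal. They were taken by name from a count table of 34419 genes, in which all 9 had a row. RNA-seq had been run on gluteal white adipose tissue (WAT), a subcutaneous depot, of 13-week-old C57BL/6J mice that had lived since birth at 22°C (n = 7) or 29°C (n = 6), where 29°C is close to thermoneutrality for a mouse. The mice were male and housed singly, and hair had been removed from the posterior body after weaning in both groups, so the comparison is of temperature in mice that all lacked this hair. The question asked of the 9 genes was whether they were raised together in single libraries, as a piece of lymph node taken with the fat would raise them, and whether their levels differed between the temperatures.

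B cells carry an antigen receptor that signals through the CD79A and CD79B chains, and MS4A1 (CD20) is a membrane protein of mature B cells. T cells signal through the CD3 complex, to which CD3E belongs, and CD4 and CD8A are the co-receptors of helper and cytotoxic T cells, though *Cd4* and *Cd8a* are also found in some dendritic cells. In a lymph node, stromal cells make CCL21 and CXCL13, which draw T cells and B cells to separate zones, while lymphocytes make lymphotoxin beta (*Ltb*), which keeps that stroma in place. Subcutaneous fat pads of the mouse can hold lymph nodes, and fat also contains scattered lymphocytes and lymphatic vessels, whose lining expresses CCL21 as well.

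*Ccl21a* has near-identical copies in the mouse genome, which bears on what its counts measure. In the GENCODE M21 transcripts, 588 of the 821 windows of 50 bases in the 870-base *Ccl21a* mRNA (71.6%) also occurred in *Ccl21b*, *Gm10591*, *Gm13304* or *Gm21541*. The 402-base *Ccl21b* transcript differed from *Ccl21a* at 2 bases, T159A and C269T, counted from the first base of the *Ccl21a* transcript with the *Ccl21a* base first. The stretch from base 150 to base 279, with those 2 positions in capitals, is shown to mark the only bases in it that can separate *Ccl21a* from these 4 copies, all of which read as *Ccl21b* does here.
Ccl21a: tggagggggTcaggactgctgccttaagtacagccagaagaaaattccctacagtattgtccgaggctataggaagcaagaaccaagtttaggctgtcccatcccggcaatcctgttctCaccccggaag
Ccl21b: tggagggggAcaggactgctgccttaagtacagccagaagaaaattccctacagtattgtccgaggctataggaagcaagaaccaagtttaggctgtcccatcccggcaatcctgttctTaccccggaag
The *Ccl21a* gene is known for its expression in lymphoid stroma, and *Ccl21b* for its expression in lymphatic vessels outside lymphoid organs. Values of the copies were not analysed here, and how reads shared among them were counted is not given in the sources used here, so the *Ccl21a* counts may include reads of more than 1 of these genes or leave some out.

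RefSeq promoter windows, the 250 bases before the gene start on GRCm38.p6, were matched for 6 of the 9 genes. Those of *Cd79a*, *Cd3e* and *Ltb* are shown as 1 example each of the B cell, T cell and lymphotoxin genes whose values by library are compared further on. Capitals mark matches, on either strand, to the Ets-type motif CNGGAAG and, in *Ltb*, also to the NF-kappaB motif.
Cd79a: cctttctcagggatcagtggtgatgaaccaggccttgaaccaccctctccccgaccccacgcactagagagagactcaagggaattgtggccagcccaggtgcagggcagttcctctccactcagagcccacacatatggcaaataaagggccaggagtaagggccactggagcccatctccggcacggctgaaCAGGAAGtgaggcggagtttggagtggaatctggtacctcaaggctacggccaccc
Cd3e: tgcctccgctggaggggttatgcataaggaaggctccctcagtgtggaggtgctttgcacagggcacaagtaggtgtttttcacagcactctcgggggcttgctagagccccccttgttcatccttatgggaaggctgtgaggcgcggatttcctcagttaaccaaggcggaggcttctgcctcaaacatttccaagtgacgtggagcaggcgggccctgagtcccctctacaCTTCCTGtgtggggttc
Ltb: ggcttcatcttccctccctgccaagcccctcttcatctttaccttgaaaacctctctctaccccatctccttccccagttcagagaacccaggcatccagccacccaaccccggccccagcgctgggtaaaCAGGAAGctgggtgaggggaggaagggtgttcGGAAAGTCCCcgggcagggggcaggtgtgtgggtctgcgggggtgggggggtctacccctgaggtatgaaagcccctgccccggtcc
The *Cd79a* window lies on the plus strand at chr7:24897247-24897496, the *Cd3e* window on the minus strand at chr9:45009612-45009861 and the *Ltb* window on the plus strand at chr17:35194257-35194506. The Ets-type letters were found in 4 of the 6 windows, also in that of *Ccl21a*, against 26.6% of all 32851 promoter windows of the same length. The NF-kappaB motif was found in *Ltb* and no other of the 6, against 3.90% of all windows, and its match did not overlap the Ets-type match. Neither the EBF-type motif CCCNNGGG (11.8% of all windows) nor the octamer ATGCAAAT (1.60%) was found in any of the 6, and TATAAA (12.4%) was found in *Cxcl13*. These are matches of letters, and the data here do not measure binding.

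All 9 genes were scarce in this tissue. The 13 libraries held between 22356637 and 25245785 counts, and the summed counts of a member over all of them ran from 140 for *Cd8a* to 2504 for *Ccl21a*. Levels below are read counts scaled to library size by the TMM method (CPM), on which 3 counts stand for 0.113 to 0.158 CPM depending on the library. To compare levels between genes, CPM was divided by the exon length of the gene in GENCODE M21, merged over all its annotated transcripts. This length can exceed that of the RNA present, so the order of the genes may depend on it. On this scale *Ccl21a* was the most abundant, with 9.31 ± 8.30 CPM per kb at 22°C (SD, n = 7) and 8.89 ± 12.8 at 29°C (SD, n = 6), and *Cxcl13* followed with 2.56 ± 1.12 and 2.89 ± 1.25. *Cd79b* and *Cd79a* came next, with 1.51 ± 1.21 and 1.44 ± 1.39 CPM per kb at 22°C and 0.973 ± 0.903 and 0.845 ± 0.954 at 29°C. *Ltb* stood at 0.866 ± 0.712 and 0.552 ± 0.317 CPM per kb, and *Cd4* at 0.314 ± 0.215 and 0.263 ± 0.111. *Cd3e*, with 0.254 ± 0.136 and 0.0727 ± 0.0406, *Ms4a1*, with 0.214 ± 0.222 and 0.122 ± 0.181, and *Cd8a*, with 0.163 ± 0.0968 and 0.0802 ± 0.0501, were the lowest. When the genes were ordered at each temperature separately, neighbours differed by less than the larger of their SDs at both temperatures, except *Cxcl13* and *Cd79b* at 29°C. The last 3 genes were in another order at 29°C, where *Ms4a1* followed *Cd4* and *Cd3e* was the lowest. Exons of *Cd3e* overlapped those of an antisense gene, *Gm48719*, over 135 of 4080 bases, and whether counting used strand is not given in the sources used here.

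**Figure D1:**
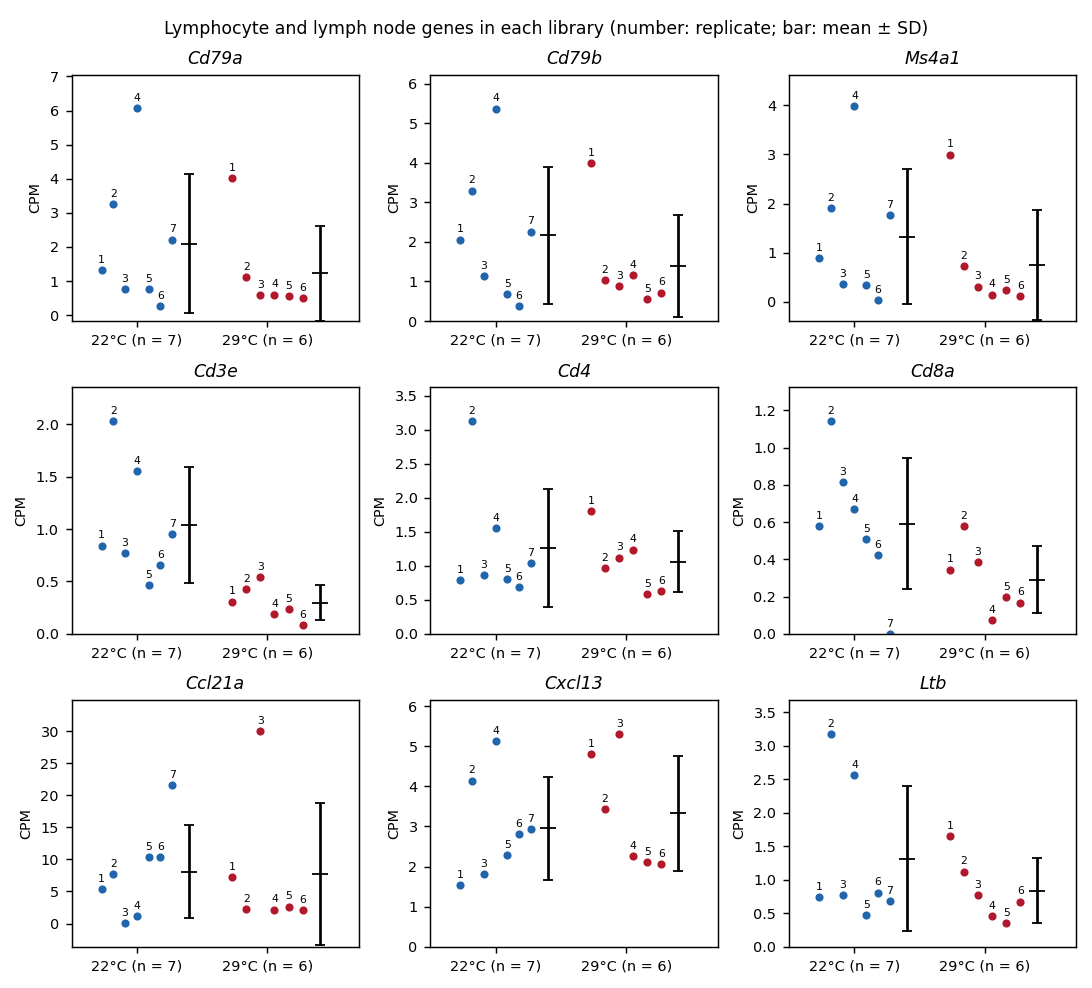
CPM of the 9 genes (linear y axes, one panel a gene) in each library at 22°C (blue, n = 7) and 29°C (red, n = 6), with the replicate number beside each point and the mean ± SD as a bar. The B cell genes are highest in 22°C replicate 4 and next highest in 29°C replicate 1, *Cd3e*, *Cd4*, *Cd8a* and *Ltb* are highest in 22°C replicate 2, and *Ccl21a* and *Cxcl13* in 29°C replicate 3.

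The 3 B cell genes were concentrated in a few libraries, and in the same ones. *Cd79a* ran from 0.270 to 6.08 CPM (median 1.32) among 22°C libraries and from 0.505 to 4.03 CPM (median 0.591) among 29°C libraries. The highest library was 22°C replicate 4 with 145 counts, followed by 29°C replicate 1 with 105, 22°C replicate 2 with 77 and 22°C replicate 7 with 49, while the median library had 18. *Cd79b* ran from 0.385 to 5.37 CPM (median 2.06) among 22°C libraries and from 0.548 to 3.99 CPM (median 0.966) among 29°C libraries, with the same 4 libraries on top. *Ms4a1* had the widest spread of the 3, from 0.0385 to 3.99 CPM (median 0.896) among 22°C libraries and from 0.126 to 2.99 CPM (median 0.272) among 29°C libraries, with the same 4 libraries in the same order. The lowest library was 22°C replicate 6 for all 3, with 7, 10 and 1 counts. Both temperatures thus contained libraries with high and with low B cell genes, and the groups overlapped for each gene.

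The T cell genes followed a related but different order. *Cd3e* had 16, 48, 17, 37, 11, 17 and 21 counts in 22°C replicates 1 to 7 and 8, 11, 14, 5, 6 and 2 counts in 29°C replicates 1 to 6. The range was 0.466 to 2.03 CPM (median 0.843) at 22°C and 0.0842 to 0.541 CPM (median 0.271) at 29°C, and 22°C replicate 5 was the only 22°C library within the 29°C range. *Cd4* ran from 0.693 to 3.13 CPM (median 0.861) among 22°C libraries and from 0.587 to 1.80 CPM (median 1.04) among 29°C libraries, with 22°C replicate 2 highest and 29°C replicate 1 next. *Cd8a* ran from 0 to 1.14 CPM (median 0.580) among 22°C libraries and from 0.0752 to 0.579 CPM (median 0.271) among 29°C libraries. Its count of 0 in 22°C replicate 7, a library high in B cell genes, allows a level of up to 0.136 CPM.

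*Ltb* shared its top libraries with the lymphocyte genes. It ran from 0.466 to 3.17 CPM (median 0.770) among 22°C libraries and from 0.352 to 1.65 CPM (median 0.724) among 29°C libraries, and its 3 highest libraries were 22°C replicate 2 with 75 counts, 22°C replicate 4 with 61 and 29°C replicate 1 with 43. *Cxcl13*, the B cell chemokine, varied least of the 9 genes on the log2 CPM scale (SD 0.58 over the 13 libraries), from 1.53 to 5.12 CPM (median 2.81) among 22°C libraries and from 2.06 to 5.30 CPM (median 2.85) among 29°C libraries. Its highest libraries were 29°C replicate 3, 22°C replicate 4 and 29°C replicate 1, so 2 of its 3 highest were also high in B cell genes.

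*Ccl21a* varied most (SD 1.95 on the log2 CPM scale), and in other libraries. It ran from 0.0906 to 21.6 CPM (median 7.69) among 22°C libraries and from 2.15 to 30.0 CPM (median 2.41) among 29°C libraries. The highest values were 776 counts in 29°C replicate 3, 478 in 22°C replicate 7 and 270 in 22°C replicate 6, which was the library with the fewest B cell counts. It had 28 counts in 22°C replicate 4, the library with the most B cell counts, and 2 counts in 22°C replicate 3. No library was thus among the 3 highest for all 9 genes: 22°C replicate 4 was among them for 8, 22°C replicate 2 for 7 and 29°C replicate 1 for 6, and *Ccl21a* was missing in each case.

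The 3 B cell genes varied together across libraries and *Cd4* varied with them, while the other pairs of lymphocyte genes and the pairs with *Ccl21a* did not pass the test. Pearson's r of log2 CPM was computed for the 36 pairs of members over the 13 libraries, with permutation P values (100000 resamples, two-sided) adjusted over the 36. *Cd79a* with *Cd79b* had r = 0.97 (rho = 0.92) and *Cd79a* with *Ms4a1* r = 0.98 (rho = 0.98), each with permutation P = 1e-05 for r, the smallest these permutations can give, and adjusted P = 0.00018. Without the 2 libraries farthest from the *Cd79a* median, 22°C replicate 4 and 29°C replicate 1, r was still 0.93 and 0.98. Within 22°C r was 0.98 and 0.99, and within 29°C 0.94 and 0.97.

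Pairs of a B cell with a T cell gene were weaker. Their median r was 0.57 over 9 pairs, all above 0. *Cd79b* with *Cd4* had r = 0.77 (rho = 0.80; permutation P = 0.00122 and 0.00157; adjusted P = 0.00878 and 0.0141), and r = 0.73 without 22°C replicate 4 and 29°C replicate 1. *Cd79a* with *Cd3e* had r = 0.57 (rho = 0.58; adjusted P = 0.104 and 0.0958 by permutation), with 0.82 within 22°C and 0.29 within 29°C, and pairs with *Cd8a* had r from 0.17 to 0.20. The 3 T cell genes themselves had a median r of 0.49, which was 0.62 on the deposited regularized log2 values and 0.35 with a prior count of 0.5. *Cd8a* had 0 to 27 and *Cd3e* 2 to 48 counts a library. The part of counting error in these r was not tested. *Cd3e* with *Cd4* had r = 0.54 (rho = 0.39, adjusted P = 0.106 and 0.286 by permutation), which fell to 0.09 without 22°C replicate 2 and 29°C replicate 6. Within 22°C the r of this pair was 0.91 and within 29°C 0.45. The median of the 3 T cell pairs was 0.32 within 22°C and 0.45 within 29°C.

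*Ltb* had a median r of 0.74 with the 6 lymphocyte genes, highest with *Cd4* (r = 0.81, rho = 0.63; adjusted P = 0.00878 and 0.0811 by permutation; r = 0.60 without 22°C replicate 2 and 29°C replicate 1). *Cxcl13* had a median r of 0.51 with them, and *Cxcl13* with *Ltb* had r = 0.68 (rho = 0.65; adjusted P = 0.0296 and 0.0811 by permutation; r = 0.85 without 22°C replicate 1 and 29°C replicate 3). The 6 pairs of *Ccl21a* with lymphocyte genes lay between -0.29 and 0.14, with a median of 0.03, and the pair of *Ccl21a* with *Cxcl13* had r = 0.37 (rho = 0.41; adjusted P = 0.328 and 0.278 by permutation), which became -0.04 without 22°C replicate 3 and 29°C replicate 3. Within 22°C the r of *Ccl21a* with *Cxcl13* was 0.15, and within 29°C it was 0.83. The median r of *Ccl21a* with the lymphocyte genes was -0.08 within 22°C and 0.34 within 29°C. Of the 15 pairs among the 6 lymphocyte genes, 6 had an adjusted permutation P of r below 0.05, the 3 among B cell genes and the 3 of a B cell gene with *Cd4*. In all, 13 of the 36 pairs had an adjusted permutation P of r below 0.05, and 5 had it for both r and rho. When 22°C replicates 2 and 4 and 29°C replicate 1 were left out together, a choice made after seeing the data, the median over the 36 pairs went from 0.54 to 0.22, while the B cell pairs kept a median of 0.89.

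**Figure D2:**
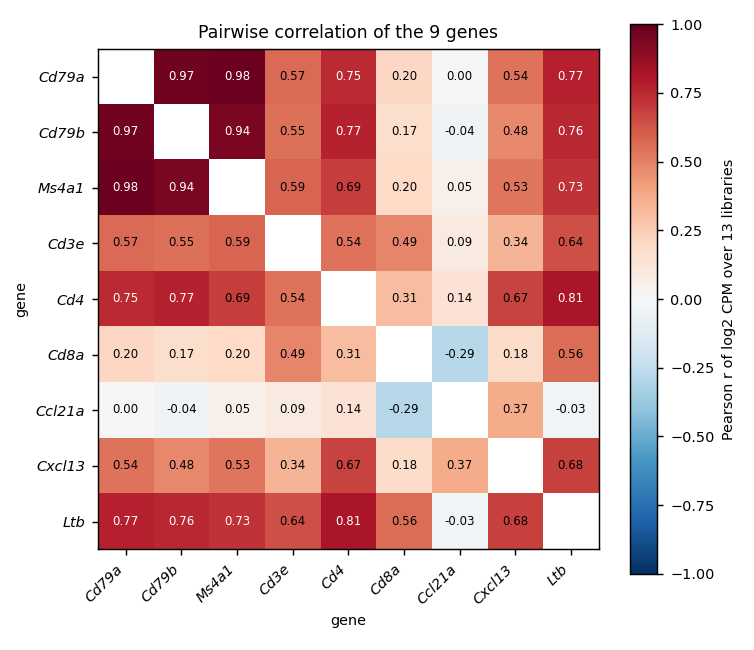
Pearson's r of log2 CPM over the 13 libraries for each pair of the 9 genes, both axes listing the genes and colour running from -1 (blue) to 1 (red). The 3 B cell genes form a block above 0.9, all other pairs of B and T cell genes are positive, and the *Ccl21a* row stays between -0.29 and 0.37.

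The make-up of the lymphocyte signal was not the same in each library. B cell genes gave 81.8% of the summed counts of the 3 B cell and 3 T cell genes in 29°C replicate 1 (287 of 351 counts; 95% Wilson interval 77.4 to 85.5%) and 80.3% in 22°C replicate 4 (368 of 458; 76.5 to 83.7%). The share was 57.3% in 22°C replicate 2 (200 of 349; 52.1 to 62.4%), below both of those intervals, and 28.1% in 22°C replicate 6 (18 of 64; 18.6 to 40.1%). The intervals cover counting error only. In 22°C replicate 7, which ranked 4 by the summed B cell genes, the share was 75.8% (138 of 182 counts, 69.1 to 81.5%). This interval overlapped those of 22°C replicate 4 and 29°C replicate 1. Of the libraries rich in B cell genes, 22°C replicate 2 alone thus had a lower share. It held 48 counts of *Cd3e* and 74 of *Cd4* beside 77 of *Cd79a*, and 29°C replicate 1 held 8 and 47 beside 105.

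**Figure D3:**
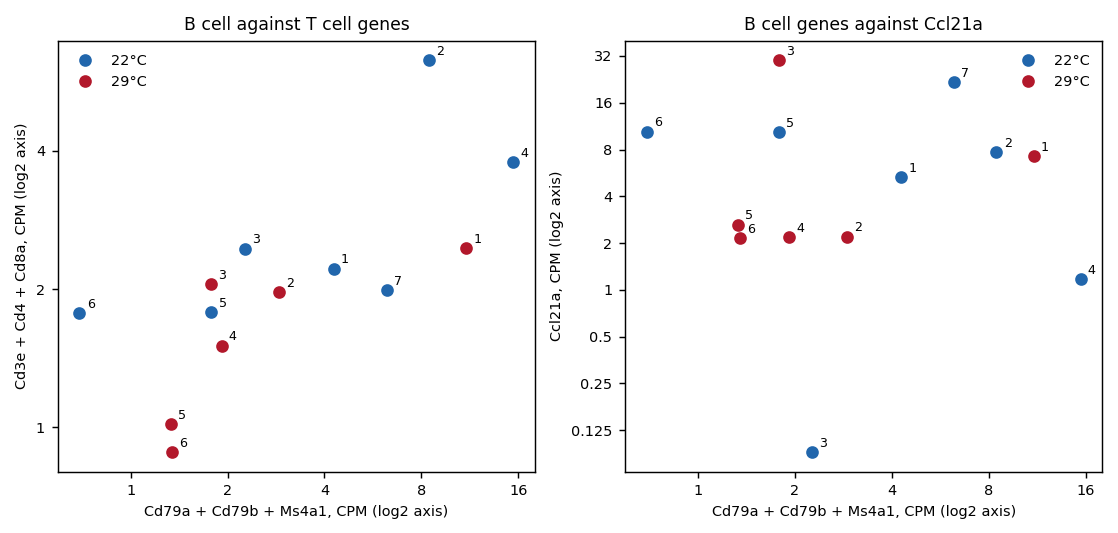
Summed CPM of the 3 B cell genes (x axes, log2) against the summed CPM of the 3 T cell genes (left, log2) and the CPM of *Ccl21a* (right, log2), one point a library, blue for 22°C and red for 29°C, with replicate numbers. On the left 22°C replicates 2 and 4 are highest on the T cell axis, and on the right the highest *Ccl21a* libraries, 29°C replicate 3 and 22°C replicate 7, are not those with the most B cell RNA.

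Of the list of lymph node stroma and high endothelial venule genes, the chemokine and venule genes *Ccl19*, *Glycam1* and *Madcam1* were scarce in all libraries, also in those high in B cell genes. Other genes of the list that fat stroma or vessels also express, such as *Cxcl12* and *Mfge8*, had 2298 or more counts in every library. *Glycam1* and *Madcam1*, made by the high endothelial venules through which lymphocytes enter nodes, had 3 and 27 counts over all 13 libraries, with at most 2 and 6 in any one. *Ccl19*, the partner of CCL21 in the T cell zone, had 3 to 31 counts a library and 18, 13 and 20 in 22°C replicates 4 and 2 and 29°C replicate 1, below the 31 in 22°C replicate 6. *Cr2*, a complement receptor of B cells and follicular dendritic cells, was highest in 22°C replicates 4 and 2 with 32 and 25 counts. *Chst4*, which makes the sugar epitope of high endothelial venules but is also known from epithelia, had 119 counts in 22°C replicate 4, 12 in 22°C replicate 1 and at most 1 elsewhere. The epithelial keratin *Krt8* was likewise highest in 22°C replicate 4, with 201 counts against at most 30 in the others. The 11 epidermis and epithelium genes examined, *Krt8* among them, summed highest in 29°C replicate 4, at 531 CPM, against at most 151 CPM among 22°C libraries. The part of epithelial RNA in the *Chst4* count was not tested.

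Genes whose profile was nearest to each member were named by the highest r over the 13 libraries among 17770 other tested genes, as a description. *Pax5*, a transcription factor of B cell identity, was among the 3 nearest to *Cd79a*, *Cd79b* and *Ms4a1* (r = 0.95, 0.94 and 0.95), and *Spib*, *Pou2af1* and *Cd22*, further B cell genes, were each among the 3 nearest to 1 of them. *Pax5* had 114 counts in 22°C replicate 4, 66 in 22°C replicate 2, 61 in 29°C replicate 1 and at most 21 in the other libraries. *Ltb* was nearest to *Grap2* (r = 0.93), *Lck* (0.90) and *Tbc1d10c* (0.90), of which *Grap2* and *Lck* are parts of T cell receptor signalling, and *Cd8a* had *Il2rb*, a receptor chain of T and NK cells, in second place (0.90) between *Orc6* (0.91) and *Sin3b* (0.88).

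For the remaining members most of the 3 nearest genes were not on the lymphocyte lists. The cut at 3 leaves out genes of those lists that ranked lower. *Cd4* was nearest to an unnamed gene, *ENSMUSG00000118445.2* (r = 0.88), then to *Ighd*, the antigen receptor heavy chain of naive B cells (0.88), and *Slc38a1*, an amino acid transporter (0.86). For *Cd3e* the list was *AI839979* (0.91), *Gm20522* (0.88) and *Abca5* (0.88), of which *Gm20522* (log2 fold change 0.43, SE 0.11; edgeR P-adj = 0.0965) and *Abca5*, a transporter gene (0.32, SE 0.08; P-adj = 0.0896), were also called higher at 22°C. As r was taken over both temperatures and *Cd3e* was itself called higher at 22°C, genes with the same difference were favoured. Their calls are thus not separate support. *Cxcl13* was nearest to *Egfr*, a growth factor receptor (0.91), *Zfp992* (0.88) and *Rasgrp1*, a signalling protein of T cells (0.86). *Ccl21a* was nearest to *Acvr1b*, an activin receptor (0.84), *Mmrn1* (0.83) and *1700066B19Rik* (0.82). *Mmrn1* is a gene of lymphatic endothelium, and it had 377 counts in 29°C replicate 3 and 18 in 22°C replicate 3, which were also the highest and the lowest library for *Ccl21a*. Of the 10 lymphatic endothelium genes examined, 4 were highest in 29°C replicate 3 and 4 were lowest in 22°C replicate 3 on the CPM scale. *Maf*, the most abundant of the 10, was instead lowest in 29°C replicate 3. The summed CPM of the 10 was highest in 22°C replicate 7 and lowest in 29°C replicate 2. *Prox1*, a lymphatic transcription factor, was among those lowest in 22°C replicate 3 but was highest in 22°C replicate 1, and *Pdpn*, a surface protein of lymphatic vessels, was highest in 22°C replicate 4.

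Between the temperatures, 1 of the 9 genes passed the test, *Cd3e*, which was higher at 22°C. The estimate was 1.78 on the log2 scale (SE 0.42; P-adj = 0.0817 by edgeR's quasi-likelihood test, adjusted over all 17779 genes tested; called below 0.1), with a mean of 1.04 ± 0.55 CPM at 22°C (SD, n = 7) against 0.297 ± 0.166 CPM at 29°C (SD, n = 6). Over all genes tested, 345, or 1.94%, were called by this rule, 130 of them higher and 215 lower at 22°C. An unadjusted P below 0.05 by the same edgeR test was found for 18.5% of all genes tested. Counts at that level below are to be read against this share. The call was close to its threshold: P-adj lay between 0.0627 and 0.149 when each library was left out in turn and stayed below 0.1 in 3 of those 13 fits, those without 22°C replicate 3, 5 or 6. The values behind it were 167 counts in all at 22°C and 46 at 29°C, and the groups overlapped.

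The other 8 genes did not pass. On the same scale *Cd8a* had 1.01 (SE 0.57; edgeR P-adj = 0.366) and *Cd4* 0.26 (SE 0.38; P-adj = 0.760). The B cell genes had 0.76 for *Cd79a* (SE 0.70; P-adj = 0.597), 0.63 for *Cd79b* (SE 0.60; P-adj = 0.611) and 0.80 for *Ms4a1* (SE 0.87; P-adj = 0.667), so each standard error was about as large as the difference. *Ltb* had 0.65 (SE 0.50; P-adj = 0.525), *Ccl21a* 0.07 (SE 0.88; P-adj = 0.980) and *Cxcl13* -0.17 (SE 0.32; P-adj = 0.810). The estimate was above 0 for 8 of the 9, with a median of 0.65, while over all tested genes 9167 of 17779 had an estimate above 0 and the median was 0.01. None of the 9 had groups that did not overlap, against 1.24% of all genes tested. In bulk tissue, a difference in the number of cells of a type and one in RNA per cell cannot be told apart.

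**Figure D4:**
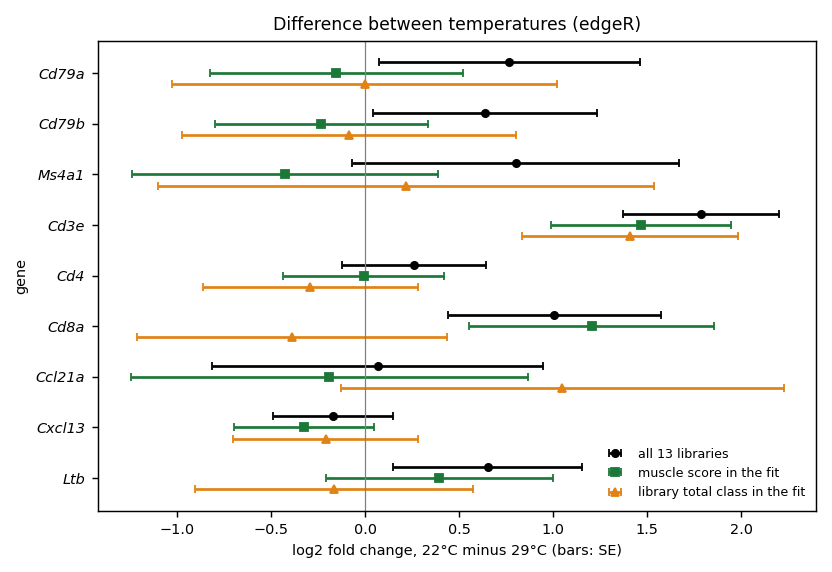
log2 fold change (22°C minus 29°C, x axis; bars are SE) of the 9 genes (y axis) from edgeR with all 13 libraries (black circles), with a skeletal muscle score in the fit (green squares) and with the library total class in the fit (orange triangles). *Cd3e* stays between 1.41 and 1.78 in the 3 fits, but passes in the first alone (P-adj = 0.0817, 0.262 and 0.334), *Cxcl13* stays below 0, and the other 7 genes lie on both sides of 0. The fit with the library total class rests on 22°C replicates 6 and 7 against the 29°C libraries.

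Markers of skeletal muscle differed between libraries over a wide range, and the B cell genes and *Cd3e* varied with them without passing the adjusted test. All 18 skeletal muscle genes examined had higher estimates at 22°C (median log2 fold change 3.15; 0 called by edgeR, 11 at an unadjusted P below 0.05 and 10 called by DESeq2, which called 10.2% of all genes it tested), and their summed CPM ran from 769 to 86880 among 22°C libraries and from 96.2 to 6803 among 29°C libraries. The muscle sodium channel gene *Scn4a* had 6542 counts in 22°C replicate 7, 3691 in 22°C replicate 1, 960 in 22°C replicate 4, 0 in 29°C replicate 6 and at most 416 in the rest. The mean log2 CPM of the muscle genes had r = 0.62 with *Cd3e* (rho = 0.60), 0.59 with *Cd79a* (0.63), 0.62 with *Cd79b* (0.64) and 0.63 with *Ms4a1* (0.62) over the 13 libraries, with adjusted P from 0.0714 to 0.0750 over 9 relations by permutation for r and rho. The other 5 members had r from -0.07 to 0.33. For the B cell genes r was 0.63 to 0.65 without 22°C replicate 1 and 29°C replicate 6, 0.60 to 0.69 within 22°C and 0.46 to 0.50 within 29°C. For *Cd3e* r was 0.43 without the same 2 libraries, 0.47 within 22°C and 0.36 within 29°C. With this score in the fit the log2 fold change of *Cd3e* was 1.47 (SE 0.48; edgeR P-adj = 0.262) and that of *Cd79a* -0.16 (SE 0.67; P-adj = 0.958). Library totals also moved with temperature: 22°C replicates 1 to 5 held fewer counts (at most 22857079) than the other 8 libraries (at least 24821549). With those 8 alone, which are 22°C replicates 6 and 7 and all 29°C libraries, *Cd3e* had 1.41 (SE 0.55, edgeR P-adj = 0.345). The part of either in the *Cd3e* result was not tested beyond these fits.

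The wider lymphocyte genes, from lists of markers, gave no further calls. Of 18 other B cell genes tested, 15 had higher estimates at 22°C and 0 were called (median log2 fold change 0.55, edgeR; 1 at an unadjusted P below 0.05, and 1 called by DESeq2). The gene at an unadjusted P below 0.05 was *Cd72*, a B cell receptor inhibitor (0.34, SE 0.10; edgeR P-adj = 0.130), but *Cd72* had 802 to 1290 counts a library and did not share the order of the members. *Ighm*, the heavy chain of IgM, had 17425 counts in 29°C replicate 6, where *Cd79a* had 12, and 3506 in 22°C replicate 4, where *Cd79a* had 145. Of 21 other T cell genes 17 had higher estimates and 0 were called (median 0.35; 0 at an unadjusted P below 0.05 and 0 by DESeq2). *Trac*, the constant region of the T cell receptor alpha chain, had 0.66 (SE 0.48; P-adj = 0.498) with 60 counts in 22°C replicate 2 and 39 in 22°C replicate 4 as its highest. *Cd3d*, another chain of the CD3 complex, had too few counts to be tested, 0 to 24 a library, with 24 in 22°C replicate 2. With the library total class in the fit the median was -0.01 for the B cell list and -0.20 for the T cell list. This fit sets 22°C replicates 6 and 7 alone against the 29°C libraries, as the lower class holds only 22°C libraries. It thus cannot tell library total apart from which 22°C libraries were compared. *Foxp3*, the regulatory T cell factor, had 125 to 234 counts and was highest in 22°C replicate 6, unlike the T cell members. Its mean, 7.33 ± 0.87 CPM at 22°C and 6.80 ± 0.50 CPM at 29°C (SD), lay above those of *Cd3e* and *Cd4*. What part of the *Foxp3* counts came from T cells was not tested.

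Genes of antibody secretion mostly had lower estimates at 22°C, and none passed the test. Of 10 plasma cell and immunoglobulin genes tested, 9 had lower estimates at 22°C (median -0.81), and 0 were called by edgeR and 0 by DESeq2. At an unadjusted P below 0.05 by edgeR there were 2 of the 10, against 18.5% of all genes tested. *Jchain*, which links secreted IgA and IgM, had -1.10 (SE 0.46; edgeR P-adj = 0.226), *Igha* -1.14 (SE 0.52; P-adj = 0.262) and *Igkc* -0.87 (SE 0.42; P-adj = 0.287). The 3 highest libraries for each were 29°C replicates 1, 2 and 3, of which replicate 1 alone was high in *Cd79a*. In 29°C replicate 2, which had 248 counts of *Jchain*, the summed red cell and granulocyte genes were also highest of all libraries, at 3387 CPM, and their part in the *Jchain* value was not tested.

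Receptors for the products of the members gave no calls. *Ltbr*, the lymphotoxin beta receptor, had 116 ± 11.6 CPM at 22°C (SD, n = 7) and 112 ± 8.94 CPM at 29°C (SD, n = 6; log2 fold change 0.06, SE 0.07; edgeR P-adj = 0.735), and *Lta*, the partner of *Ltb*, had 1 to 13 counts a library with 13 in 22°C replicate 4. Of 12 genes of the lymphotoxin and B cell survival pathway tested, 8 had higher and 4 lower estimates and 0 were called (median 0.06; 1 at an unadjusted P below 0.05, the TNF receptor *Tnfrsf1a*, and 0 by DESeq2). *Cxcr5*, the CXCL13 receptor, had 146 counts in 29°C replicate 1, 129 in 22°C replicate 4 and at most 73 elsewhere, and a log2 fold change near 0 (0.13, SE 0.29; P-adj = 0.850). *Ccr7*, the CCL21 receptor, had 31 and 24 counts in 22°C replicates 2 and 4 and 2 to 18 elsewhere. All 8 homing receptor genes tested had higher estimates at 22°C and 0 were called (median 0.14, edgeR; 0 at an unadjusted P below 0.05 and 0 by DESeq2).

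Stromal genes showed a single call. *Vcam1*, an adhesion molecule of stroma and endothelium, was lower at 22°C (log2 fold change -0.55, SE 0.14; edgeR P-adj = 0.0896), with 12.2 ± 2.57 CPM against 18.0 ± 2.74 CPM, among 8 lymph node stroma genes of which 7 had lower estimates (median -0.12). This list had 0 calls in 12 of the 13 fits without 1 library, all but that without 22°C replicate 6, and 0 with the muscle score in the fit. *Vcam1* levels in 22°C replicates 2 and 4, 12.1 and 9.73 CPM, were not among its 3 highest, and *Mmrn1* (-0.81, SE 0.58; P-adj = 0.484) and the other lymphatic endothelium genes, 9 tested, gave 0 calls by edgeR and by DESeq2 and 0 at an unadjusted P below 0.05. The pan-leukocyte gene *Ptprc* (CD45) had 19.2 ± 3.57 CPM at 22°C (SD, n = 7) and 19.2 ± 4.47 CPM at 29°C (SD, n = 6), and its log2 fold change was near 0 (0.0024, SE 0.16; edgeR P-adj = 0.996). It was highest in 22°C replicate 4 with 24.1, 29°C replicate 1 with 24.0 and 22°C replicate 2 with 24.0 CPM, the 3 libraries in which most members were highest.

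Lists of other cell types were described in the same way. Of the NK cell list 8 of 10 tested genes had higher estimates at 22°C (median 0.21), of the innate lymphoid type 2 list 2 of 4 (0.04), of the germinal centre list 1 of 6 (-0.12) and of the pan-leukocyte list 8 of 8 (0.08), with 0 called by edgeR in each. For dendritic cells it was 4 of 9 (-0.20), for macrophages 4 of 10 (-0.11), for granulocytes and blood 3 of 9 (-0.77), for epidermis and epithelium 0 of 7 (-1.23) and for endothelium 2 of 8 (-0.13), again with 0 called. At an unadjusted P below 0.05 by edgeR there were 3 of 9 dendritic cell, 1 of 8 endothelial and 1 of 6 germinal centre genes. The share over all genes tested was 18.5%. DESeq2 called 1 germinal centre gene and none of the other lists in this paragraph but adipocytes. The median of the granulocyte and blood list was 0.20 without 29°C replicate 2 and 0.50 by DESeq2, and that of the epithelial list 0.25 without 29°C replicate 4. Of 11 adipocyte genes 3 had higher estimates (-0.19), and 1, the adipokine gene *Lep*, was called lower at 22°C. The adipocyte genes summed to between 26804 and 41718 CPM in each library, which shows adipose RNA in all of them but not the depot. The sum was lowest in 22°C replicate 7, where the muscle genes were highest at 86880 CPM.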

How the data were processed

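Gluteal WAT of 7 mice at 22°C and 6 mice at 29°C had been sequenced, and groups were taken from the sample labels. Per the labels and the submitters' processing notes, the authors aligned reads with STAR 2.7.5a to GRCm39 and deposited raw counts per gene from featureCounts (settings not given in the sources used here) and regularized log2 values from DESeq2. In the deposited counts, 34006 of 34419 gene identifiers were matched to a symbol. Genes were tested with edgeR 4.0.16 (R 4.3.3) with the quasi-likelihood test, TMM scaling, filterByExpr and Benjamini-Hochberg adjustment over 17779 genes, called at P-adj below 0.1. log2 CPM used a prior count of 2. Alternatives were DESeq2 1.42.0, limma 3.58.1 on the deposited log2 values, other filters and scalings, covariates, and leaving out libraries. Permutation tests used numpy 2.4.6 in Python 3.11.15.

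No pair of the 78 pairs of libraries was a duplicate (lowest chi-square per gene 15.5). The tests were checked on simulated data. Depth was 22356637 to 25245785 counts a library, and 3 counts were taken as the floor. The labels number the samples as replicates without naming animals, so P values measure the spread between these libraries. The 9 genes and the marker lists were chosen with earlier results of these data known. Genes named are the 9 members, the called or else most abundant genes of marker lists (some of these are given by count only), the 3 nearest genes to each member and markers that define a lymph node. An item that this rule names is not reported here. *Mmrn1* is among the nearest, and *Prox1*, *Pdpn*, *Krt8*, *Cxcl12*, *Mfge8*, *Cd72*, *Chst4*, *Foxp3*, *Igha* and *Tnfrsf1a* were named after their values were seen. Promoter and transcript sequences came from RefSeq (GRCm38.p6) and GENCODE M21, a build other than that of the counts, so no gene coordinates are given beyond those windows.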

Additional observations from a re-analysis of the deposited data

Results flagged for a closer look

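In 18 sets of values (9 genes at 2 temperatures), 5 had a single library whose gap to its nearest neighbour was a large part of the range by Dixon's criterion. Chance alone flags about 1 in 20 sets of normally distributed values by it, a rate that need not hold for CPM of low counts. At 29°C, replicate 1 stood apart for the 3 B cell genes, with 4.03 CPM of *Cd79a*, 3.99 CPM of *Cd79b* and 2.99 CPM of *Ms4a1*. These are 3 readings of 1 library and not independent. At 22°C, replicate 2 stood apart for *Cd4* with 3.13 CPM. In 29°C replicate 3, *Ccl21a* stood apart with 30.0 CPM. In 22°C replicate 4, which had the highest B cell genes of all, no member stood apart by this criterion, since 22°C replicates 2 and 7 lay between it and the rest.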

How the results depend on the processing

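The number of genes called in the whole table, 345, was 1676 with DESeq2, 42 without a filter on low counts, 4 with the library total class as a covariate, 8 in the 8 libraries of higher total, 41 with the muscle score as a covariate, 40 at P-adj below 0.05, 24 without 22°C replicates 2 and 4 and 29°C replicate 1 (chosen after seeing the data) and 32 to 652 without 1 library. In each of these 7 settings 0 members were called, against 1, and without 1 library it was 0 to 1. DESeq2 gave *Cd3e* an unadjusted P of 4.17e-05 with n = 7 and 6 but no adjusted P for *Cd3e* and *Cd8a* because of their low means, so its 0 covers 7 members. *Cd3e* kept a positive log2 fold change in every fit that gave it an adjusted P, with P-adj = 0.165 without the filter, 0.334 with the total class and 0.226 without the 3 libraries. The lower total class holds 22°C libraries only. The fit with it, and that of the 8 libraries of higher total, thus compare 22°C replicates 6 and 7 with the 29°C libraries. Estimates that were not called changed sign: with the total class, *Cd79a* -0.00411, *Cd79b* -0.0885, *Cd4* -0.29, *Cd8a* -0.39 and *Ltb* -0.17; in the 8 libraries of higher total, *Cd79b* -0.0806, *Cd4* -0.30, *Cd8a* -0.43 and *Ltb* -0.18; with the muscle score, *Cd79a* -0.16, *Cd79b* -0.23, *Ms4a1* -0.43, *Cd4* -0.00996 and *Ccl21a* -0.19; and without the 3 libraries, *Cd4* -0.12. The causes were not tested. Without 1 library, *Cd4* ran from -0.15 to 0.48, *Ccl21a* from -0.40 to 1.30 and *Cxcl13* from -0.36 to 0.00919 (-0.41 without the 3 libraries), and *Ms4a1* was tested in 9 of the 13 fits.

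The median r of all pairs was 0.54 and fell to 0.22 without the 3 libraries, where B cell pairs had 0.89, T cell pairs 0.26, *Cxcl13* pairs -0.0242 and *Ltb* pairs 0.23. By rho, B cell pairs had 0.92 and *Ltb* pairs 0.60. Within 29°C, B cell pairs had 0.94, *Ccl21a* pairs 0.34 and *Cxcl13* pairs 0.70. T cell pairs had 0.62 on regularized log2 values, 0.32 within 22°C and 0.35 with a prior count of 0.5. Without 1 library, T cell pairs ran from 0.29 (without 22°C replicate 2) to 0.56 and *Ccl21a* pairs from -0.0768 to 0.21. Deviations of same-numbered libraries had r above 0.1 in 5 of 6 pairs (0.05 to 0.51), and as 1 pair was lower and the labels give no shared origin, the numbers were not taken as a pairing: with a replicate block 263 genes were called, against 184 for the same 12 libraries without it, and *Cd3e* had edgeR P-adj = 0.0988 with the block and 0.103 without it. The r of libraries with different numbers is not given here, so these values cannot settle whether the numbers mark pairs. The permutation tests treated all libraries as exchangeable and took no account of the replicate numbers. The low counts of the members limit *Cd8a*, *Cd3e* and *Ms4a1* most.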
